A study of Mus musculus with 10 samples.

Results

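The genes of endoplasmic reticulum (ER) chaperones and of the unfolded protein response were followed as 35 named members, taken by gene symbol from the 20611 genes listed for each of 10 mouse skins. Of the members, 34 had enough counts to be tested, and Ern2 had 0 counts in all 10 libraries. Skin messenger RNA was sequenced, 1 library per mouse, from 5 Klk6+ mice and 5 WT mice, with 3 males (mice 1 to 3) and 2 females (mice 4 and 5) in each genotype. Klk6+ mice carried a Tetos-Klk6 transgene, encoding mouse kallikrein-related peptidase 6 with a C-terminal Myc/His tag, together with the K5-tTA driver. K5-tTA places a tetracycline transactivator under the bovine keratin 5 promoter, which is active in epidermal keratinocytes and some other stratified epithelia, and the transgene is on when doxycycline is absent. Klk6+ mice were bred under doxycycline, since no transgenic pups were born without it, and both lines were backcrossed to C57BL/6. WT mice were littermates with neither transgene or with only 1 of the pair, so none carried Tetos-Klk6 together with its K5-tTA driver. The protocols put the return of doxycycline to the chow at 10 to 11 weeks and tissue collection at 14 to 16 weeks of age. The sources used here do not say at which point the sequenced skins were taken, and Klk6 stood at 10293 to 14773 CPM in Klk6+ and 12.7 to 26.5 CPM in WT. CPM denotes the read count scaled to a common library size.

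Proteins that are secreted or sit in membranes are threaded into the ER through the SEC61 channel and folded there by chaperones, lectins and disulfide isomerases. When unfolded protein builds up, the membrane sensors IRE1 (Ern1, Ern2), PERK (Eif2ak3) and ATF6 (Atf6) start the unfolded protein response, which raises chaperone and degradation genes through XBP1 and ATF6 and slows translation through PERK. Prolonged PERK signalling induces CHOP, the product of Ddit3, through ATF4. Keratinocytes use this machinery for cell-surface adhesion proteins, secreted proteases and lipid-loaded lamellar bodies.

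The genotypes differed over much of the transcriptome: of all genes tested, 37.7% were called higher in Klk6+ and 35.1% lower, and counts of members are to be read against these shares. Total counts per library were 26521019 to 39796511 in Klk6+ and 32798416 to 41970272 in WT. On the first principal component (78.3% of the variance) all Klk6+ libraries lay at or above 72.8 and all WT libraries at or below -71.9. On the second (7.85%), Klk6+ 3 and Klk6+ 5 lay at -33.4 and -52.1 and the other Klk6+ libraries between 4.32 and 42.2. Cell type marker sums moved with genotype: the 10 skeletal muscle genes, all lower, summed to 4015 to 8289 CPM in Klk6+ and 53396 to 79527 CPM in WT, and the 7 activated keratinocyte genes, all higher, to 28428 to 43045 CPM in Klk6+ and 518 to 1183 CPM in WT. The 8 basal and suprabasal keratinocyte genes (5 higher, 1 lower) summed to 22173 to 32111 CPM in Klk6+ and 5977 to 16929 CPM in WT. The 8 fibroblast genes, all lower, summed to 4669 to 9544 CPM in Klk6+ and 12340.0 to 41330.0 CPM in WT, the 8 macrophage genes, all lower, to 499 to 1596 CPM in Klk6+ and 1487 to 7718 CPM in WT, and the 8 sebaceous genes (6 higher) to 1314 to 3886 CPM in Klk6+ and 324 to 763 CPM in WT. The 6 tested neutrophil genes, all higher, gave list sums of 2446 to 3970.2 CPM in Klk6+ and 13.3 to 24.7 CPM in WT. In Klk6+ that sum was mostly S100a8, which is also on the activated keratinocyte list (2399 to 3831 CPM in Klk6+, 6.41 to 10.5 CPM in WT). Each of the other neutrophil genes had a mean of at most 39.9 CPM in Klk6+. Of the adipocyte genes 7 of 8 were lower and 1 higher (939 to 1661 CPM in Klk6+ and 2395 to 3378 CPM in WT), of the endothelial genes 7 of 8 were lower (222 to 311 CPM in Klk6+ and 393 to 551 CPM in WT), and of the T cell genes 5 of 7 were lower (11.8 to 16.4 CPM in Klk6+ and 23.6 to 36.3 CPM in WT). Of 8 hair shaft genes 1 was higher, with sums of 4.69 to 1598 CPM in Klk6+ and 6.73 to 115 CPM in WT. No marker found in the files was at 0 in every library, and the part of these shifts in the member results was not tested. Whole skin was measured, so fewer cells of a type and less RNA per cell cannot be told apart.

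Of 29 members with a RefSeq promoter record (300 bases around the start site, GRCm38.p6), 8 held an ER stress response element (ERSE) and 2 held the shorter ERSE-II. Ern2, Atf6, Hyou1, Manf, Derl1 and Sec61a1 had no record. ERSE was searched on both strands as CCAAT and CCACG with 9 bases between them, and ERSE-II as ATTGG and CCACG with 1 base between them. Only exact copies of these letters and spacings were counted, so variant copies are neither marked nor included. ERSE is a binding site of NF-Y with ATF6 or XBP1. Among all 27025 genes with a promoter record, 0.137% held an ERSE and 0.0444% an ERSE-II, against 27.6% and 6.90% of these members. The promoters of Hspa5, Hsp90b1 and Creld2 are shown whole because they hold the element in 3 arrangements (once on the gene's strand, once on each strand, and once on the opposite strand), with the paired 5-base ends in capitals.
Hspa5 promoter, chr2:34771840-34772139, plus strand: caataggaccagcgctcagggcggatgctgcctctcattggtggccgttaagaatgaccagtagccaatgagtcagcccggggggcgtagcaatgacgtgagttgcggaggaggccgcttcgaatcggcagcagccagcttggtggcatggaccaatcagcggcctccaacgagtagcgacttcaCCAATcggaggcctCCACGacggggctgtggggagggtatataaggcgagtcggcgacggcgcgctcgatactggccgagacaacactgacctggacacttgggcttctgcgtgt
Hsp90b1 promoter, chr10:86705395-86705694, minus strand: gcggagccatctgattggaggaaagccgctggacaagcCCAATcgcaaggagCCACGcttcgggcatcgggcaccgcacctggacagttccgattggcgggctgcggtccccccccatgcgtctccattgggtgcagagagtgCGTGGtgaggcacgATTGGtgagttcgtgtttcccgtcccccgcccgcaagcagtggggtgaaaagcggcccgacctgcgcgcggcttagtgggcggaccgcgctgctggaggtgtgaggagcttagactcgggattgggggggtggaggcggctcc
Creld2 promoter, chr15:88819396-88819695, plus strand: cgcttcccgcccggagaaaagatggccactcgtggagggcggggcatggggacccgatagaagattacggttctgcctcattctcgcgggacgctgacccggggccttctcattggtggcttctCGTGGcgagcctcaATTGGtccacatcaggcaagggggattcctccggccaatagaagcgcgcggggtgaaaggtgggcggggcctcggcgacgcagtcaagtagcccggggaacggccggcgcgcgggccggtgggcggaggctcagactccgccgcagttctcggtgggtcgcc
The other sites are shown alone, each read on the strand that carries the element, so that the fixed ends and the variable spacer can be compared.
Herpud1 ERSE-II site, chr8:94386377-94386387: ATTGGgCCACG
Derl3 ERSE site, chr10:75893242-75893260: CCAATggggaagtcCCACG
Canx ERSE site, chr11:50325800-50325818: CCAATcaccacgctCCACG
Pdia6 ERSE site, chr12:17266491-17266509: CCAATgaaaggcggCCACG
Dnajc3 ERSE site, chr14:118937827-118937845: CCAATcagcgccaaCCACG
Dnajb11 ERSE-II site, chr16:22857852-22857862: ATTGGcCCACG
Syvn1 ERSE site, chr19:6046532-6046550: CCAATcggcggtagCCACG
Between the fixed ends the spacers differed in every site, and all ERSE sites lay upstream of the start site, from 212 to 26 bases before it. The ERSE-II of Dnajb11 lay 8 to 18 bases into the transcript. The UPRE core TGACGTGG was in no member promoter and in 0.714% of all genes. The half-site of the amino acid response element (TGATG, any base, AA) was in those of Trib3 and Herpud1 and in 4.51% of all genes. Of the 10 members with an ERSE or ERSE-II, 8 rose in Klk6+ and 0 fell (median log2 fold change 0.84). Of the other 19 tested members with a record, 14 rose and 2 fell (median 0.68). Of all genes tested 37.7% rose and 35.1% fell, with a median of 0.04, and the difference between these sets of members was not tested. A match gives the letters only and does not show binding.

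Most members were higher in Klk6+ skin. In edgeR's quasi-likelihood test with sex as a covariate and Benjamini-Hochberg adjustment over 14861 genes, 26 of 34 tested members rose (76.5%), where 37.7% of all genes tested rose, and 2 fell (5.88%), where 35.1% of all genes fell. The median log2 fold change was 0.77 for the members and 0.04 for all genes tested. All 5 Klk6+ mice stood above all 5 WT mice for 23 members, which was so for 30.1% of all genes, and all stood below for 1 member, against 27.0% of all genes. At least 2-fold rises were found for 10 members (29.4%), against 15.7% of all genes. Summed over the members, the length-scaled level was 2488 to 3108 FPKM in Klk6+ and 1312 to 1534 FPKM in WT, a ratio of means of 2.00. FPKM summed over all genes was also higher in Klk6+ (610304 to 655518, against 490691 to 519399 in WT). As a share of that sum the members made up 0.454% ± 0.0423 in Klk6+ and 0.280% ± 0.0237 in WT (SD, n = 5 each), a ratio of 1.62. Their share of counts was 0.793% ± 0.0692 in Klk6+ and 0.425% ± 0.0323 in WT.

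**Figure D1:**
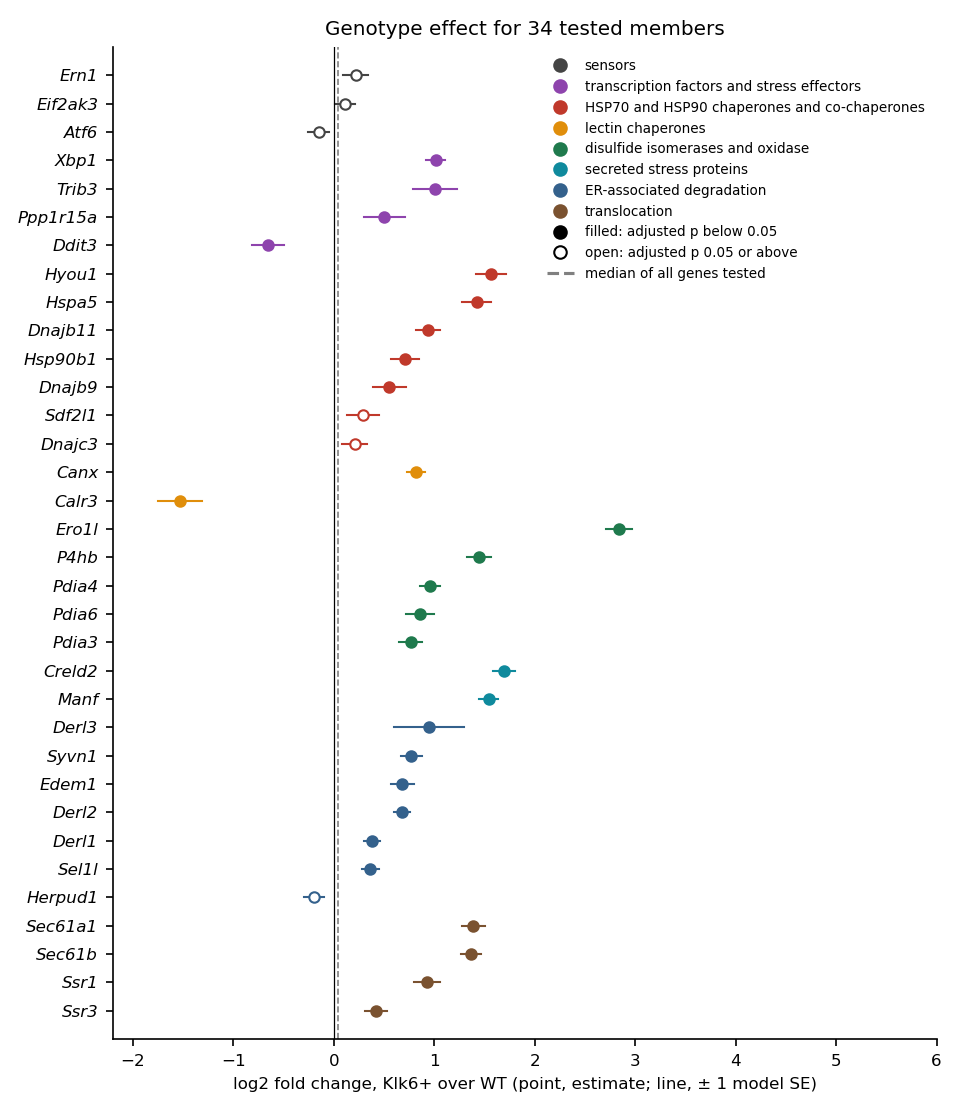
Log2 fold change, Klk6+ over WT, of the 34 tested members (points, with 1 model SE on either side), grouped by role; filled points passed adjusted p below 0.05. Ero1l stands farthest to the right at 2.84, Calr3 farthest to the left at -1.53, and the 3 sensor genes are open points near the dashed median of all genes.

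The genes of the stress sensors did not pass the test. Ern1, which encodes IRE1 alpha, had 13.5, 15.4, 17.2, 16.8 and 15.7 CPM in Klk6+ mice 1 to 5, against 13.1, 10.1, 12.3, 15.4 and 17.8 CPM in WT mice 1 to 5. The Klk6+ values lay inside the WT range, and the log2 fold change was 0.22 ± 0.13 (SE; adjusted p = 0.148). Eif2ak3, which encodes PERK, stood at 26.9 to 33.9 CPM in Klk6+, against 26.6 to 32.3 CPM in WT, and differed by 0.11 ± 0.10 (SE; adjusted p = 0.347) on the log2 scale. For Atf6, the membrane-bound transcription factor that is cut in the Golgi, the values were 59.7 to 76.8 CPM in Klk6+, against 67.2 to 85.6 CPM in WT, and the log2 fold change was -0.15 ± 0.10 (SE; adjusted p = 0.205). With upper-quartile scaling Atf6 was called lower (-0.25, adjusted p = 0.0300). Ern2, the IRE1 beta gene of mucosal epithelia, had 0 counts in Klk6+ and 0 in WT, which allows up to 0.0182 CPM in Klk6+ and 0.0164 CPM in WT (3 counts over the 5 libraries, counting error only). These are transcript levels, and sensor activity was not measured.

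Xbp1, the target of IRE1 splicing and the transcription factor of that branch (chromosome 11, 5520659 to 5525893, plus strand, GRCm38), rose. It had 367, 368, 361, 388 and 289 CPM in Klk6+ mice 1 to 5, against 196, 191, 178, 160.5 and 156 CPM in WT mice 1 to 5. The lowest Klk6+ mouse was well above the highest WT mouse, and the log2 fold change was 1.01 ± 0.09 (SE; adjusted p = 6.46e-06). Counts per gene do not tell spliced from unspliced Xbp1 transcripts. Of the 3 members tied to the PERK branch, 2 rose and 1 fell, where 37.7% of all genes tested rose and 35.1% fell. Ddit3, the gene of the pro-apoptotic factor CHOP, had 6.01, 5.96, 4.66, 8.33 and 5.89 CPM in Klk6+ mice 1 to 5, against 9.58, 6.74, 10.1, 10.8 and 11.2 CPM in WT mice 1 to 5. Of its exons 10.9% lie over exons of other annotation entries, Mars among them. The log2 fold change was -0.65 ± 0.16 (SE; adjusted p = 0.00398), with Klk6+ 4 above WT 2 and the other mice apart by genotype. Trib3, a pseudokinase gene induced by ATF4 and CHOP, rose by 1.01 ± 0.22 on the log2 scale (SE; adjusted p = 0.002), at 11.9 to 19.1 CPM in Klk6+, against 4.09 to 9.12 CPM in WT. Ppp1r15a encodes GADD34, which directs removal of the phosphate from eIF2 alpha. It stood at 32.2 to 65.1 CPM in Klk6+, against 28.4 to 41.6 CPM in WT, a difference of 0.50 ± 0.20 (SE; adjusted p = 0.0442) on the log2 scale with overlap between genotypes. That call was lost without any one of Klk6+ 2, 3 or 5 or WT 1, 3, 4 or 5 (adjusted p 0.0890 to 0.216, the last without Klk6+ 5, when the log2 fold change was 0.28), and under 3 other scalings, DESeq2 and both limma fits.

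Of the 7 HSP70 and HSP90 chaperone and co-chaperone genes, 5 rose (71.4%, against 37.7% of all genes tested) and 2 did not pass the test. Hspa5 encodes BiP, the ER HSP70 that also holds the sensors inactive (chromosome 2, 34771970 to 34777547, plus strand). Its values were 829.8, 1024, 1137, 969.6 and 997 CPM in Klk6+ mice 1 to 5, against 270.4, 411, 360.4, 365 and 446 CPM in WT mice 1 to 5. The lowest Klk6+ mouse was far above the highest WT mouse, and the log2 fold change was 1.42 ± 0.14 (SE; adjusted p = 1.08e-05). Hyou1, the large HSP70 relative that exchanges nucleotide on BiP, stood at 139 to 224 CPM in Klk6+, against 56.8 to 80.2 CPM in WT and rose by 1.57 ± 0.15 on the log2 scale (SE; adjusted p = 7.92e-06). Hsp90b1 encodes GRP94, the ER HSP90 needed by integrins and Toll-like receptors. It stood at 422 to 629.6 CPM in Klk6+, against 241 to 387 CPM in WT and rose by 0.71 ± 0.14 on the log2 scale (SE; adjusted p = 0.00119). Of its exons 15.7% lie over exons of other genes. Dnajb11 (log2 fold change 0.94 ± 0.12, adjusted p = 4.22e-05) and Dnajb9 (0.55 ± 0.16, adjusted p = 0.0113), J-domain partners of BiP, rose as well, Dnajb9 with overlap between genotypes. The J-domain gene Dnajc3 stood at 121 to 182 CPM in Klk6+, against 108 to 149 CPM in WT, a difference of 0.21 ± 0.12 (SE; adjusted p = 0.151) on the log2 scale. Sdf2l1, a BiP cofactor gene, had 14.2, 15.8, 22.6, 24.1 and 31.7 CPM in Klk6+ mice 1 to 5, against 11.5, 17.1, 13.8, 20.5 and 26.2 CPM in WT mice 1 to 5. Values of both genotypes overlapped, the females were higher than the males within each, and the log2 fold change was 0.29 ± 0.16 (SE; adjusted p = 0.132).

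**Figure D2:**
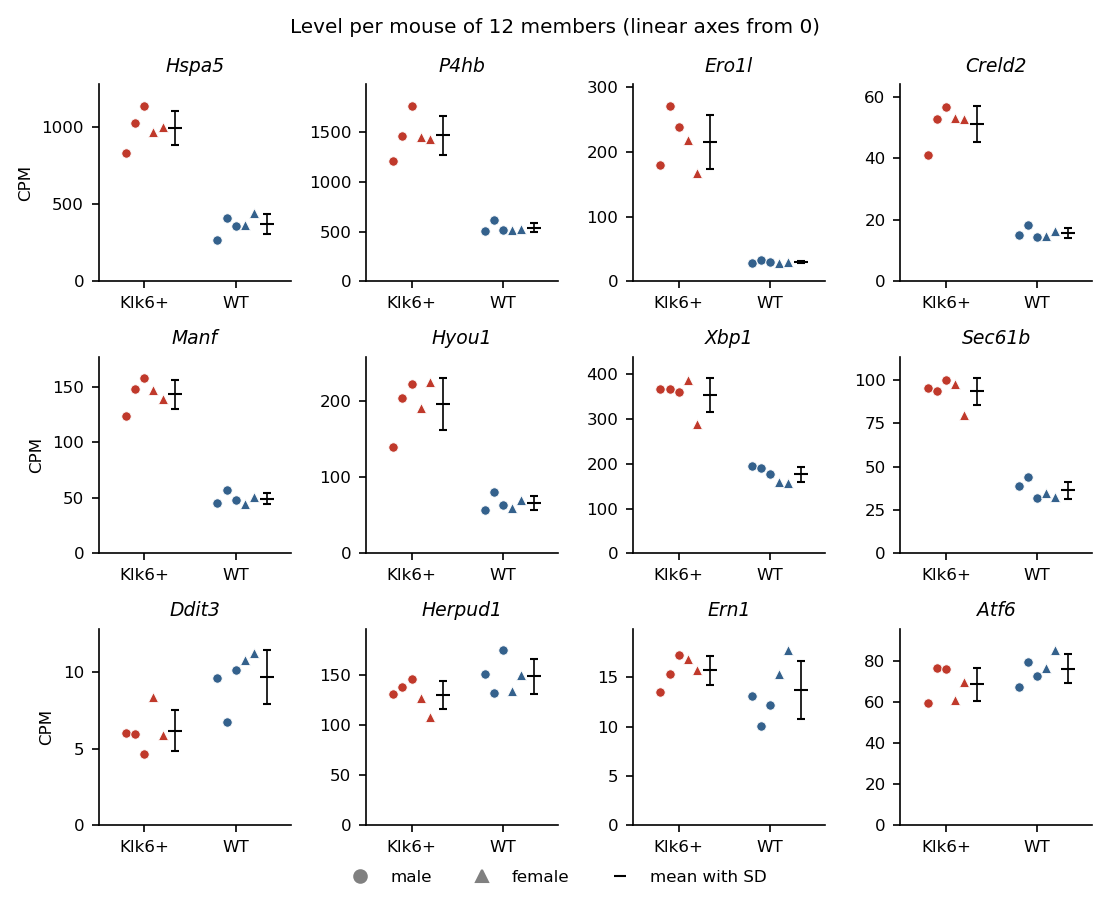
CPM of 12 members in each mouse (circles, males; triangles, females; bars, mean with SD, n = 5 per genotype), Klk6+ on the left of each panel and WT on the right, on linear axes from 0. Genotypes are apart in the first 8 panels and overlap for Ddit3, Herpud1, Ern1 and Atf6.

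All 5 genes of disulfide isomerases and their oxidase rose, each without overlap between genotypes, where 37.7% of all genes rose and 30.1% were so separated. Ero1l (Ero1a in RefSeq), the oxidase that passes disulfides to the isomerases (chromosome 14, 45283087 to 45318771, minus strand), moved farthest of all members. It had 180.1, 272, 239, 218 and 168 CPM in Klk6+ mice 1 to 5, against 28.8, 32.5, 30.4, 28.6 and 29.6 CPM in WT mice 1 to 5. The WT mice lay within 4 CPM of one another and the lowest Klk6+ mouse was at 168 CPM. The log2 fold change was 2.84 ± 0.13 (SE; adjusted p = 1.99e-07). P4hb encodes protein disulfide isomerase, which is also the beta subunit of collagen prolyl 4-hydroxylase. Its values were 1212, 1462, 1766, 1456 and 1435 CPM in Klk6+ mice 1 to 5, against 511, 620.4, 514, 518 and 527 CPM in WT mice 1 to 5. The log2 fold change was 1.45 ± 0.12 (SE; adjusted p = 3.02e-06), while the 8 fibroblast markers, 3 of them collagen genes, all fell. Pdia4 rose by 0.95 ± 0.10 on the log2 scale (SE; adjusted p = 1.31e-05), Pdia6 by 0.86 ± 0.14 (SE; adjusted p = 2.65e-04) and Pdia3, whose product acts on glycoproteins held by calnexin and calreticulin, by 0.76 ± 0.11 (SE; adjusted p = 1.47e-04). Pdia6 stood at 208 to 301 CPM in Klk6+, against 112 to 176 CPM in WT.

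The 2 lectin chaperone members went opposite ways. Canx, the gene of the membrane lectin calnexin, stood at 496 to 621 CPM in Klk6+, against 287 to 338 CPM in WT and rose by 0.81 ± 0.09 on the log2 scale (SE; adjusted p = 1.93e-05). Calr3, a calreticulin relative known from testis, stood at 0.447 to 1.0 CPM in Klk6+, against 1.58 to 3.02 CPM in WT. All Klk6+ mice were below all WT mice, and the log2 fold change was -1.53 ± 0.22 (SE; adjusted p = 1.21e-04), on 12 to 38 counts per Klk6+ library and 53 to 103 per WT library. The somatic calreticulin gene Calr is on the list of other folding genes described further on.

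Both genes of secreted stress proteins rose, as did 37.7% of all genes. Creld2, an ER-resident protein gene released under stress (chromosome 15, 88819646 to 88826683, plus strand), had 41.0, 52.6, 56.6, 53.2 and 52.6 CPM in Klk6+ mice 1 to 5, against 15.0, 18.4, 14.3, 14.9 and 16.4 CPM in WT mice 1 to 5. Klk6+ 1 was the lowest Klk6+ mouse and still above 2 times the WT maximum of 18.4 CPM, and the log2 fold change was 1.70 ± 0.11 (SE; adjusted p = 8.94e-07). Manf, which encodes a neurotrophic factor that leaves the ER when calcium falls, stood at 123 to 158 CPM in Klk6+, against 44.7 to 57.1 CPM in WT and rose by 1.54 ± 0.10 on the log2 scale (SE; adjusted p = 8.17e-07). Of the Manf exons in the annotation 9.25% lie over exons of other genes, and the library kit does not mark strand.

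Of 7 genes of ER-associated degradation, which returns misfolded proteins to the cytosol for the proteasome, 6 rose (85.7%, against 37.7% of all genes tested) and Herpud1 did not pass the test. The ubiquitin ligase gene Syvn1 (HRD1) stood at 63.3 to 84.6 CPM in Klk6+, against 37.0 to 49.1 CPM in WT and rose by 0.77 ± 0.10 on the log2 scale (SE; adjusted p = 8.18e-05), and its partner Sel1l rose by 0.36 ± 0.09 on the log2 scale (SE; adjusted p = 0.00335) at 157 to 189.6 CPM in Klk6+, against 126 to 143 CPM in WT. Edem1, which sorts mannose-trimmed glycoproteins for disposal, rose by 0.68 ± 0.11 on the log2 scale (SE; adjusted p = 3.17e-04). Of the derlins, membrane proteins of the exit channel, Derl2 rose by 0.68 ± 0.08 on the log2 scale (SE; adjusted p = 3.30e-05) and Derl1 by 0.38 ± 0.08 (SE; adjusted p = 0.00116), with no overlap between genotypes for either. Derl3 was low, at 0.453 to 1.19 CPM in Klk6+, against 0.120 to 0.732 CPM in WT, a difference of 0.95 ± 0.35 (SE; adjusted p = 0.0306) on the log2 scale. That call was lost without any one of Klk6+ 2, 3 or 5 or WT 3 or 5 (adjusted p 0.0662 to 0.0790), with upper-quartile scaling (0.0522) and without sex as a covariate (0.0670), and without Klk6+ 3 and 5 together (0.153). Plasma cells are a known source of Derl3. Of their 7 listed markers 6 were tested. Sdc1, at 926 to 1321 CPM in Klk6+, against 222 to 489 CPM in WT, and Prdm1, at 59.2 to 189 CPM in Klk6+, against 12.5 to 26.9 CPM in WT, were higher. Irf4, at 2.68 to 9.87 CPM in Klk6+, against 22.3 to 48.8 CPM in WT, and Tnfrsf17, at 0.0309 to 0.170 CPM in Klk6+, against 0.385 to 4.42 CPM in WT, were lower. Jchain, at 2.33 to 8.55 CPM in Klk6+, against 2.72 to 14.1 CPM in WT, and Pou2af1, at 0.142 to 0.596 CPM in Klk6+, against 0.0481 to 0.449 CPM in WT, did not pass the test, and Mzb1 was too low to be tested. The list's sum, 993 to 1515 CPM in Klk6+ and 295 to 541 CPM in WT, was mostly Sdc1. The part of plasma cells in the Derl3 result was not tested. Herpud1, an adaptor of the ligase complex, had 131, 139, 146, 127 and 108 CPM in Klk6+ mice 1 to 5, against 152, 133, 176, 134 and 150.5 CPM in WT mice 1 to 5. The genotypes overlapped and the log2 fold change was -0.20 ± 0.10 (SE; adjusted p = 0.0924). It was called lower without Klk6+ 4 (-0.28, adjusted p = 0.0457) or WT 2 (-0.27, adjusted p = 0.0234), with total-count (-0.25) or upper-quartile scaling (-0.30) and with DESeq2 (-0.24, adjusted p = 0.0368).

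The 4 genes of the translocation channel and its associated complex all rose without overlap, where 37.7% of all genes rose and 30.1% were so separated. Sec61a1, the pore subunit, stood at 343 to 451 CPM in Klk6+, against 139 to 193 CPM in WT (log2 fold change 1.39 ± 0.12, adjusted p = 3.30e-06). Sec61b, a small subunit of the same channel, had 95.4, 93.9, 100.2, 97.7 and 79.9 CPM in Klk6+ mice 1 to 5, against 38.7, 44.1, 31.7, 34.7 and 32.4 CPM in WT mice 1 to 5. The lowest Klk6+ mouse was above every WT mouse by over 35 CPM, and the log2 fold change was 1.37 ± 0.10 (SE; adjusted p = 1.60e-06). The translocon-associated protein genes Ssr1 (log2 fold change 0.93 ± 0.13, adjusted p = 8.64e-05) and Ssr3 (0.42 ± 0.11, adjusted p = 0.00544) rose less. The lowest Klk6+ value of Ssr3, 361 CPM in Klk6+ 1, lay just above the highest WT value, 359 CPM in WT 2, and the Ssr3 call was lost without Klk6+ 3 and 5 together (0.26, adjusted p = 0.0695).

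On the length-scaled FPKM level, which allows genes to be set side by side, P4hb was the highest member in both genotypes, at 542 ± 68.4 FPKM in Klk6+ and 197 ± 12.7 FPKM in WT (SD, n = 5 each), followed by Hspa5 at 366 ± 37.4 FPKM in Klk6+ and 135 ± 22.6 FPKM in WT. In WT, Hspa5 (135 FPKM) and Pdia3 (133 FPKM) differed by less than their SDs of 22.6 and 17.2 FPKM. The sensor genes were among the lowest, with Ern1 at 3.61 ± 0.369 FPKM in Klk6+ and 3.13 ± 0.714 FPKM in WT, Eif2ak3 at 6.18 ± 0.634 FPKM in Klk6+ and 5.71 ± 0.511 FPKM in WT and Atf6 at 8.16 ± 0.776 FPKM in Klk6+ and 9.02 ± 0.761 FPKM in WT. Ero1l ranked 16 of 35 in Klk6+, at 44.0 FPKM, and 29 in WT, at 6.09 FPKM. Creld2 ranked 18 in Klk6+ and 26 in WT, and Herpud1 ranked 11 in Klk6+ and 7 in WT. Calr3 and Derl3 were at or under 1.38 FPKM in the mean of either genotype.

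**Figure D3:**
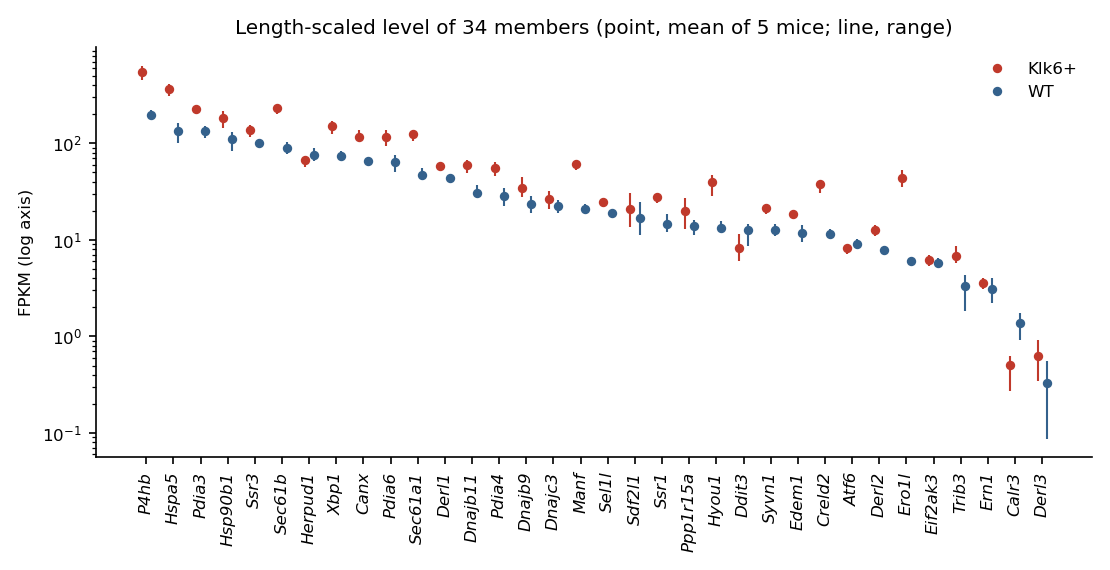
Authors' FPKM (log axis) of 34 members in Klk6+ (red) and WT (blue), in the order of the WT mean; points are means of 5 mice and lines the range. Ero1l, Creld2, Manf and Hyou1 stand out of the WT order in Klk6+, and Ern1, Eif2ak3, Atf6 and Dnajc3 lie beside their WT points.

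Within genotypes, Klk6+ 1 was the lowest Klk6+ library for 23 of 34 members, with a median deviation of -0.22 (log2) from the Klk6+ mean, where that over all genes tested was 0.01. Klk6+ 3 was the highest for 14 members (median deviation 0.13). Among WT libraries, WT 2 was the highest for 15 members and the lowest for 8 (median deviation 0.11), and WT 1 was the lowest for 16 (-0.09). How often each library was the lowest or highest over all genes tested was not counted. With each library left out in turn, 24 to 26 members were called higher and 2 to 3 lower. In the same fits, of 14961 to 15003 genes tested, 4981 to 5507 were called higher and 4974 to 5488 lower. Without Klk6+ 3 and 5 together, a setting chosen after seeing the data, 23 members were called higher and 2 lower. In that fit, of 15158 genes tested, 5269 were called higher and 5290 lower.

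The genotype effect was measured within each sex in a fit with 4 genotype-by-sex means. In females 20 members rose and 1 fell, where 31.2% and 28.4% of all genes did. In males 25 rose and 2 fell, where 33.4% and 31.0% of all genes did. The interaction, which tests the difference between the sexes itself, passed for 0 of 34 members and 0 genes (0%) in edgeR at adjusted p below 0.05. The sex coefficient itself, female over male, passed for 0 members and 0.0404% of all genes. At an unadjusted p below 0.05 the interaction passed for 1 member and 9.49% of all genes. DESeq2 called 0 members and 263 genes for the interaction at adjusted p below 0.05. The 1 member was Edem1, with a log2 fold change of 0.36 ± 0.12 in females and 0.89 ± 0.10 in males (interaction -0.53 ± 0.16, adjusted p = 0.345). Ern1 did not pass in females (-0.03 ± 0.18, adjusted p = 0.903) and passed in males (0.38 ± 0.15, adjusted p = 0.047), with an interaction of -0.41 ± 0.23 (adjusted p = 0.627).

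**Figure D4:**
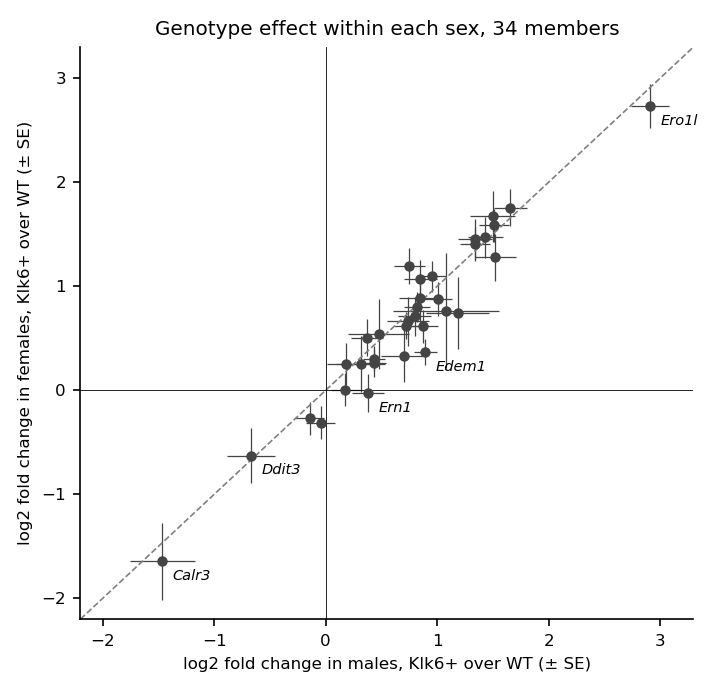
Log2 fold change, Klk6+ over WT, of 34 members in females (vertical axis) against males (horizontal axis), each with its SE, and a dashed line of equal change. Points lie along the line from Calr3 at the lower left to Ero1l at the upper right, and Edem1 lies below it.

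Other genes of the secretory pathway were read from 6 lists, with log2 fold changes in parentheses. Over all genes tested 37.7% rose and 35.1% fell, with a median of 0.04. Of 28 genes of signal recognition, translocation, signal peptidase and oligosaccharyl transfer, 21 rose (75.0%) and 1 fell (3.57%; median log2 fold change 0.72). Srp19 of the signal recognition particle (1.15, adjusted p = 4.93e-07), Ssr4 (1.08, adjusted p = 1.35e-06), Spcs2 of signal peptidase (0.88, adjusted p = 3.23e-06) and Sec61g (1.04, adjusted p = 3.38e-06) rose, and Sec61a2, a second pore gene, fell (-0.66, adjusted p = 1.65e-04). Among 23 tested genes of other ER chaperones and folding enzymes, 12 rose (52.2%) and 6 fell (26.1%; median 0.22). Calr rose to 968 ± 125 CPM in Klk6+, against 459 ± 83.1 CPM in WT (SD, n = 5 each; 1.08, adjusted p = 4.99e-05). The glucosidase genes Mogs (1.01, adjusted p = 1.77e-06) and Prkcsh (0.81, adjusted p = 4.43e-05) and the thioredoxin-like Tmx1 (0.55, adjusted p = 3.50e-05) rose. Uggt2 (-1.56, adjusted p = 3.70e-05), Fkbp14 (-1.32, adjusted p = 1.85e-04), which acts on collagens, Cnpy3 (-0.65, adjusted p = 1.49e-04) and Ero1lb (-0.69, adjusted p = 0.00201), the second oxidase gene, fell. Ero1lb thus moved against Ero1l, at 4.87 to 6.74 CPM in Klk6+ and 7.41 to 12.8 CPM in WT.

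Of 18 tested genes of other ER-associated degradation, 9 rose (50.0%) and 3 fell (16.7%; median 0.29). Vimp, a selenoprotein of the exit complex (1.50, adjusted p = 9.11e-06), Faf2 (0.90, adjusted p = 5.90e-06), Ubxn4 (0.80, adjusted p = 4.45e-06) and Edem3 (0.76, adjusted p = 4.03e-06) rose, while Erlec1 (-0.44, adjusted p = 0.00148) and Herpud2 (-0.44, adjusted p = 0.00155) fell. Of 22 COPII coat, cargo receptor and KDEL receptor genes, which carry proteins out of the ER or return them, 13 rose (59.1%) and 3 fell (13.6%; median 0.48). The coat genes Sec23b (1.50, adjusted p = 8.28e-07), Sec24c (0.82, adjusted p = 7.25e-06) and Sec24a (0.77, adjusted p = 1.33e-05) and Preb (0.83, adjusted p = 4.01e-06) rose. Sec16b (-1.83, adjusted p = 4.17e-06), Sec23a (-0.87, adjusted p = 3.31e-05) and Sar1b (-0.41, adjusted p = 0.0311) fell, Sar1b with overlap between genotypes. The paralogs Sec23a and Sec23b thus changed in opposite directions.

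Of 16 genes of the ATF4 branch and the eIF2 alpha kinases, 9 rose (56.2%, against 37.7% of all genes) and 3 fell (18.8%, against 35.1%; median 0.49). Atf4 rose to 226 ± 24.7 CPM in Klk6+, against 89.0 ± 7.54 CPM in WT (SD, n = 5 each; 1.35, adjusted p = 1.17e-06). Asns, asparagine synthetase (1.98, adjusted p = 5.66e-07), Cebpb (1.86, adjusted p = 1.21e-06) and Eif2s1, which encodes eIF2 alpha (1.54, adjusted p = 6.94e-07), rose. Vldlr (-2.26, adjusted p = 1.04e-05), the kinase gene Eif2ak2 (-0.49, adjusted p = 0.00182) and Atf3 (-1.41, adjusted p = 0.0287) fell, Atf3 with overlap, at 4.17 to 69.5 CPM in Klk6+ and 34.9 to 69.4 CPM in WT. Among 18 other regulators 6 rose (33.3%) and 4 fell (22.2%), both below the shares of all genes (median 0.09). Bhlha15, the secretory-cell factor MIST1, rose (2.99, adjusted p = 6.15e-04), at 1.11 to 2.97 CPM in Klk6+ and 0.0299 to 0.528 CPM in WT. Atf6b, the relative of Atf6 (0.97, adjusted p = 4.17e-06), Bak1 (0.68, adjusted p = 3.13e-04) and Tmbim6 (0.75, adjusted p = 0.00119) rose as well. The calcium-handling Wfs1 (-1.24, adjusted p = 4.47e-06), Mbtps1, the protease that cuts ATF6 (-0.40, adjusted p = 4.30e-04), Creb3l2 (-0.40, adjusted p = 0.037) and Creb3l1 (-0.67, adjusted p = 0.0442) fell. Creb3l2, at 9.92 to 16.7 CPM in Klk6+ and 15.2 to 20.3 CPM in WT, overlapped between genotypes. So did Creb3l1, at 19.8 to 29.4 CPM in Klk6+ and 25.05 to 74.3 CPM in WT.

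**Figure D5:**
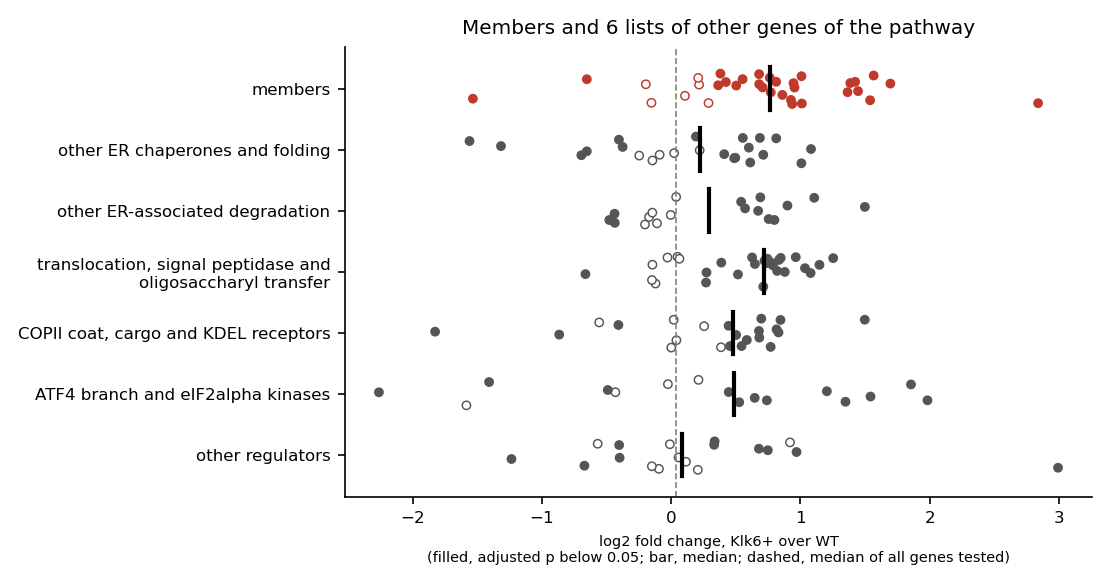
Log2 fold change, Klk6+ over WT, of the tested members (red) and of the tested genes of 6 other lists (grey), filled where adjusted p was below 0.05, with each list's median as a bar. The medians run from 0.09 for other regulators to 0.77 for the members, against 0.04 for all genes tested (dashed).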

How the data were processed

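Skin mRNA of 10 mice was sequenced as 50-cycle single-end reads. The authors deposited, for each mouse, read counts and FPKM per gene. The submitters' processing notes list HTSeq, Cufflinks 2.2.1, TopHat2 and SAMtools, with GRCm38 (mm10) as the build and no role for each tool. The library kit does not mark strand, so strand cannot assign reads that lie over overlapping genes. How such reads were counted is not known here. Of exonic bases, 8.05% of Eif2ak3 and 8.16% of Sec61a1 lie over other entries. Counts were tested in R 4.3.3 with edgeR 4.0.16: filterByExpr at a minimum count of 10, TMM scaling, sex and genotype as terms, and the quasi-likelihood F test with Benjamini-Hochberg adjustment (threshold 0.05). The procedure was tested on simulated data with 200 genes changed. In the real data 72.8% of genes tested were called, and the simulation did not cover so broad a change. Alternatives were other scalings, no filter, DESeq2 1.42.0, limma 3.58.1 (voom, and trend on log2(FPKM + 1) for genes with a mean FPKM of at least 0.5), and leaving out libraries. Labels name separate mice but give no litter or sequencing batch. Members and lists were chosen with earlier results of these data known. All members are named, with up to 4 called genes per direction and list by smallest p, plus Calr, Atf4 and Atf3; 1 gene that this rule names is not reported here. Plasma cell markers are given singly, a choice made after their values were seen. C-terminal retention signals were not analysed here.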

Additional observations from a re-analysis of the deposited data

Results flagged for a closer look

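In 68 groups of 5 libraries (34 members in 2 genotypes), 4 held 1 library far from the other 4, measured by its gap to the nearest relative to the whole range. Chance gives about 1 in 20 such groups. Xbp1 was at 288.7 CPM in Klk6+ 5, where the other Klk6+ libraries ran between 360.6 and 387.7 CPM. Creld2 was at 41.0 CPM in Klk6+ 1, with the other Klk6+ libraries between 52.6 and 56.6 CPM. WT 2 was high for both other genes: P4hb was at 620.4 CPM, with the other WT libraries between 511.2 and 526.7 CPM, and Dnajb11 at 80.4 CPM, with the others between 58.7 and 63.7 CPM. For all 4 genes the genotypes stayed apart with these libraries included.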

How the results depend on the processing

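Over 20 alternative settings and 34 members, 679 fold changes were computed: 649 kept their direction and their side of the threshold, 23 lost their call, 6 gained one and 1 changed sign, and 28 members kept both in every setting that gave a value. The sign change was Eif2ak3, at -0.024 (log2; adjusted p = 0.867) without Klk6+ libraries 3 and 5 together, a setting chosen after seeing the data. With upper-quartile factors 4 members were called lower (Atf6 and Herpud1 beside Ddit3 and Calr3), against 2 in the main fit. Of the 14861 genes tested, 5669 were called lower with these factors and 5210 in the main fit. The median log2 fold change of all genes was -0.06 and 0.04. The cause of the added calls was not tested. Leaving out each library gave 24 to 26 members higher, 2 to 3 lower, 0 with an interaction, 85 to 93 pathway list genes called and 10319 to 10744 genes called. Other scalings moved the median of all genes by less than 0.1 (log2). Derl3 had too low a mean for the FPKM fit. Calr3, near 1 FPKM, changed by -0.66 on the log2(FPKM + 1) scale, where the pseudocount understates low genes. Depth limits Calr3, Derl3 and Ern2. No paired analysis was possible because the replicate numbers were given in accession order and pair no mice.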

Other observations

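The sex coefficient of the genotype fit, looked at after the data had been seen, gave 4 members with an unadjusted p below 0.05 and 0 after edgeR's Benjamini-Hochberg adjustment, where 16.3% and 0.0404% of all genes passed. Sdf2l1 was higher in females by 0.70 ± 0.16 on the log2 scale (SE; adjusted p = 0.106), Pdia4 by 0.31, Ern1 by 0.29 and Derl3 by 0.83. For Sdf2l1 both females stood above all 3 males within each genotype.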
